A study of Mus musculus with 20 samples.

Results

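The genes described here are 42 genes of the cardiac sarcomere and its Z-disc, chosen by name, and all 42 were found among the 25052 genes listed for mouse left ventricle. Each matched 1 row. Genes were tested where 5 or more libraries held 0.5 FPKM or more; 12775 genes met this floor, among them all 42. FPKM, a read count divided by transcript length and library size, is the deposited unit. By role, 8 genes encode the motor and thick filament, 13 the thin filament and its regulation, 4 the M-band, and 17 the Z-disc, desmin and the junctions.

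The hearts came from male mice with both alleles of ACC2 floxed (ACC2 f/f), which is listed as Acacb and encodes the acetyl-CoA carboxylase of the outer mitochondrial membrane. Mice that also carried MerCreMer, a Cre recombinase that tamoxifen activates, are called iKO, and their littermates without it are the controls, labelled WT. Both genotypes were injected with tamoxifen when 8 weeks old, on 5 days and at 20 mg/kg, and so the controls had the drug too. From 4 weeks later the mice were kept on chow or a high-fat diet (HFD) for 16 weeks. The 4 groups hold 5 mice each: chow-fed WT (libraries RT1, RT3, RT5, RT8 and RT10), chow-fed iKO (RT2, RT4, RT6, RT7 and RT9), HFD-fed WT (RT12, RT14, RT16, RT18 and RT19) and HFD-fed iKO (RT11, RT13, RT15, RT17 and RT20). Values of single libraries follow this order. The promoter that drives MerCreMer is not named in the sources used here, and a change from loss of ACC2 cannot be told apart from one caused by the recombinase, since all Cre-bearing mice were floxed. RT1 to RT10 were all on chow and RT11 to RT20 all on HFD, so that diet cannot be told apart from anything else that followed the library numbering.

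The sarcomere is the contractile unit of striated muscle. Myosin thick filaments pull on actin thin filaments when calcium binds troponin, and tropomyosin, lying along actin, gates the contact. Thin filaments are anchored in the Z-disc and thick filaments are cross-linked at the M-band, while titin spans from one to the other. In the adult mouse ventricle the fast α-myosin heavy chain (Myh6) predominates over the slow β-chain (Myh7), and cardiac actin (Actc1) over skeletal actin (Acta1). A shift toward the minor form of each pair is widely used as a sign of a stressed ventricle.

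Depth, estimated from the spacing of low FPKM values of short genes, was 12.5 to 32.1 M assigned reads per library, with a median of 22.5. It was 19.2 to 22.6 M in chow-fed WT and 23.9 to 32.1 M in HFD-fed WT, which did not overlap. In iKO it was 12.5 (RT7) to 24.1 M on chow and 20.5 to 29.5 M on HFD. The part of depth in the diet differences was not tested. Pearson correlations of log2(FPKM + 1) between libraries were 0.983 to 0.995. Acacb, the targeted gene, stood at 37.4 to 41.1 FPKM in WT and 8.37 to 9.46 in chow-fed iKO, and at 34.9 to 41.9 and 9.05 to 11.9 on HFD, so every library matched its genotype label. Markers of atrial muscle summed to 722 FPKM in RT1 and 389 in RT4, against 34.7 to 199 in the other libraries. Fibroblast markers summed to 654 to 882 FPKM in RT2, RT4, RT13, RT15 and RT17, all iKO, against 374 to 506 elsewhere. Long transcripts were low in RT19. Skeletal muscle markers summed to no more than 13.5 FPKM in any library, with Myh1 and Myh2 at or under 0.05 throughout. The sums were 251 to 311 FPKM for smooth muscle and pericytes, 184 to 219 for endothelium, 60.2 to 111 for macrophages, 1605 to 3061 for erythroid cells and at most 3.49 for white adipocytes, with Lep at or under 0.05 throughout. In whole tissue, fewer cells of a type and less RNA per cell cannot be told apart.

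FPKM is a per-length scale, on which levels of different genes can be set side by side. In chow-fed WT the regulatory light chain Myl2 was the highest member at 11910 ± 281 FPKM (SD, n = 5), followed by tropomyosin Tpm1 at 5632 ± 170.2, the essential light chain Myl3 at 5196 ± 109, Actc1 at 4565 ± 199 and troponin T (Tnnt2) at 3741 ± 78.5. Myl3 and Tpm1 differed by more than the spread of either. Troponin I (Tnni3) at 2971 ± 117 and Myh6 at 2602 ± 129.5 came next. The lowest members were Pdlim3 at 5.38 ± 1.15, the sarcomeric myosin Myh7b at 5.32 ± 0.660 and the M-band protein Myom3 at 1.07 ± 0.117 FPKM. Pdlim3 and Myh7b did not differ beyond their spread. The 42 genes together took 5.66% ± 0.0329 of all FPKM in chow-fed WT and 5.85% ± 0.370 in chow-fed iKO (SD, n = 5). On HFD their share was 4.74% ± 0.314 in WT and 4.76% ± 0.112 in iKO, and the ranges on the 2 diets did not overlap in either genotype. Genes of the mitochondrial genome took 33.0% of all FPKM in WT and 32.0% in iKO on chow, and 35.1% in each genotype on HFD.

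**Figure D1:**
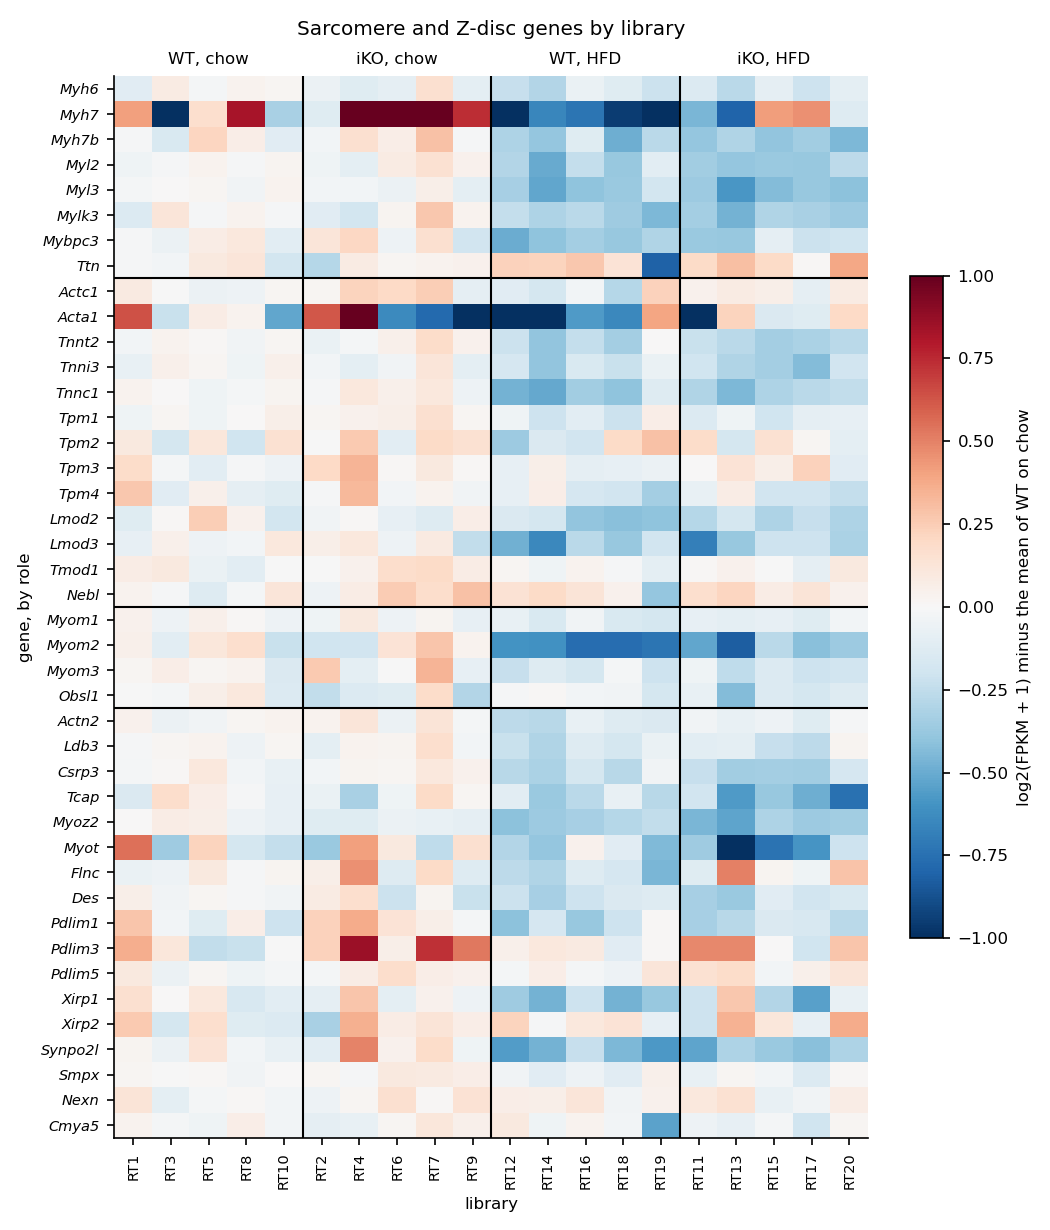
Sarcomere and Z-disc genes by library. Each cell is log2(FPKM + 1) of a gene (rows, ordered by role) in a library (columns, by group) minus the mean of chow-fed WT, with colours ending at -1 and 1. The 10 HFD columns are mostly blue for the light chains, troponins, Myom2, Myoz2 and Synpo2l, while Myh7 and Acta1 vary widely between libraries of 1 group.

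The comparison of diets asked what a high-fat diet did to these transcripts in each genotype. On HFD 18 of the 42 genes fell in WT and 17 fell in iKO, and none rose (limma on log2(FPKM + 1), Benjamini-Hochberg adjusted p under 0.05 over all genes tested). Over all tested genes 7.27% fell in WT and 8.36% in iKO, while 0.767% and 1.65% rose. The median log2 fold change of the 42 genes was -0.20 in WT and -0.21 in iKO, against -0.084 and -0.072 over all genes. The 2 comparisons share no library, but both use the spread estimated from all 20 libraries. Both also set libraries from RT1 to RT10 against libraries from RT11 to RT20. How many of all genes were called in both was not counted, so the overlap has no background beside it. Both called 14 genes, out of 18 in WT and 17 in iKO: the light chains Myl2 and Myl3, the light chain kinase Mylk3, Mybpc3, Myh7b, Tnnt2, Tnni3, Tnnc1, Lmod2, Lmod3, Myom2, Csrp3, Myoz2 and Synpo2l. Actn2, Ldb3, Myh6 and Xirp1 passed in WT alone and Pdlim1, Tcap and Tpm1 in iKO alone, but the interaction of genotype and diet was called for none of the 42 (0 at an unadjusted p under 0.05; 0.0313% of all genes called). Averaged over genotypes 26 genes fell, against 23.3% of all genes, none rose (2.55% of all genes did), and the 5 added ones were Myh7, Des, Myom1, Myom3 and Myot, of which Myh7 alone passed after the scaling described next.

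The count depended on how libraries were scaled to each other. Median-of-ratios scaling, which sets the typical gene equal in all libraries, left 6 genes lower in WT (1.25% of all genes) and 10 in iKO (1.91%), with 15 in the average (5.07%). None of the 42 rose, against 1.4% of all genes in WT, 2.55% in iKO and 5.31% in the average. Myl3, Tnnc1, Myom2, Myoz2 and Synpo2l fell in both genotypes under either scale. Scaling also moved single libraries. RT19 then lay within the chow-fed WT range for Myl3 (5091 FPKM) and Myoz2 (571). For Tnnc1, RT19 (2144 FPKM) lay above every chow-fed WT library (2073 to 2114). Myom2 overlapped between the diets in iKO, and of these 5 genes Synpo2l alone stayed apart. Whether libraries overlap is otherwise given for FPKM as deposited. The median of the 42 genes was then -0.10 in WT and -0.13 in iKO, against -0.0018 and -0.0035 for all genes. Over all genes the called ones split 98 higher and 929 lower in WT as deposited and 178 and 159 after scaling. In iKO they split 211 and 1068, then 325 and 244, and in the average 326 and 2973, then 678 and 647. The 10 cardiomyocyte marker genes outside the list had medians of -0.10 in WT (1 fell) and -0.082 in iKO (2 fell) as deposited, and 0.0035 and 0.0036 with 0 called after scaling. In the average over genotypes 5 of these 10 fell as deposited (median -0.091), and after scaling 0 fell and 1 rose (median 0.0027).

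**Figure D2:**
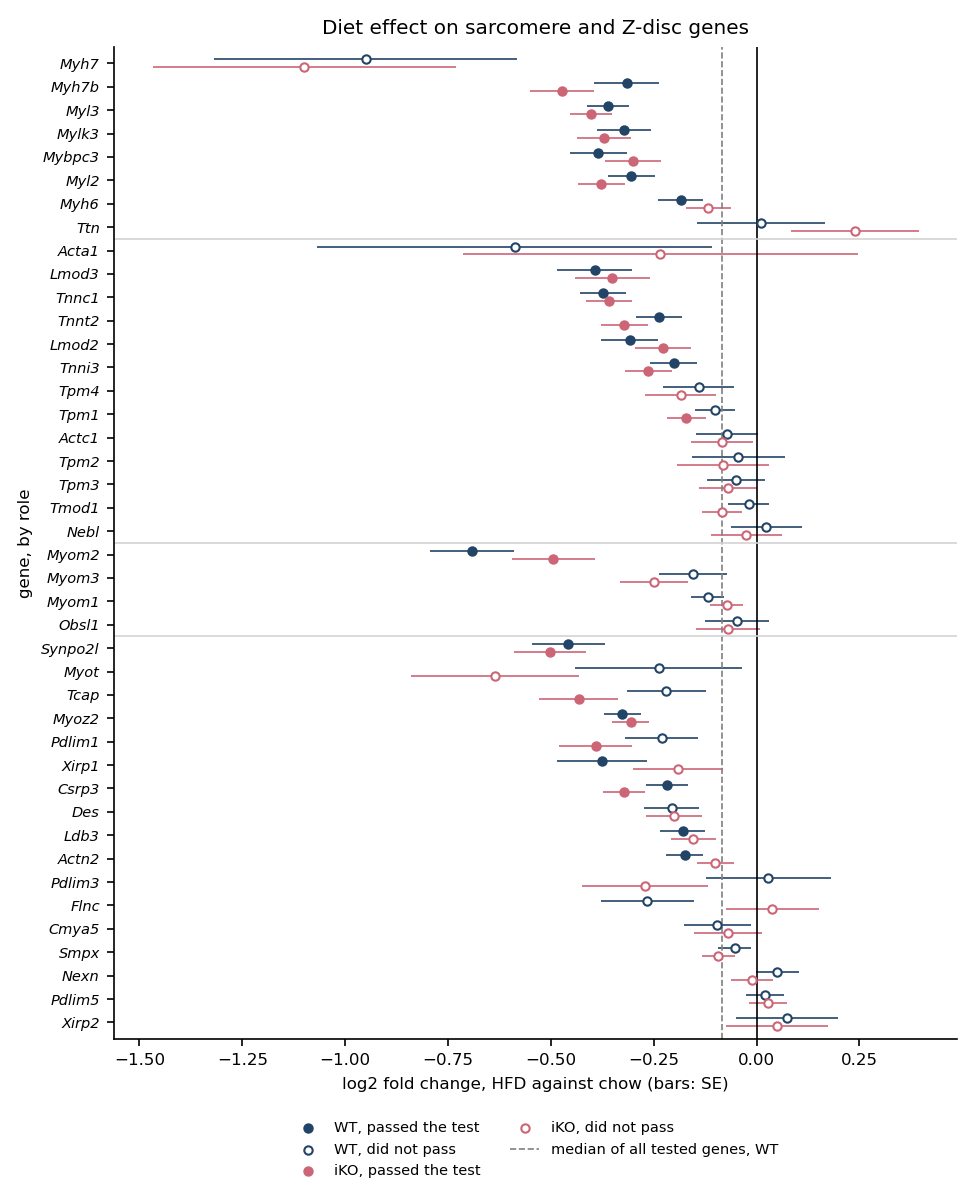
Diet effect on each sarcomere and Z-disc gene. Points are log2 fold changes, HFD against chow, on the log2(FPKM + 1) scale in WT (blue) and iKO (red), with bars of 1 SE, filled where the limma adjusted p was under 0.05; the dashed line is the median of all tested genes in WT, -0.084. Filled points all lie below 0, and Ttn, Nexn, Pdlim5 and Xirp2 lie near or above it.

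The start of the gene was read for the members, whether or not they fell, since several muscle transcription factors bind there. Whether a motif went with the fall was not tested. RefSeq (GRCm38.p6) gave a window for 36 of the 42. Within the 250 bases before the start, on both strands, 4 short motifs were searched. The CArG box, bound by serum response factor, was in 6 of 36 genes (16.7%, against 1.6% of 27025 genes with a window). The MEF2 site, read as YTAWWWWTAR (Y is C or T, W is A or T, R is A or G), was in 6 (16.7% against 3.4%). The MCAT element CATTCC, bound by TEAD factors and here read on either strand, was in 12 (33.3% against 14.4%). The GATA site, AGATAA or TGATAA, was in 10 (27.8% against 18.8%). Of the 21 genes with a window that fell on HFD averaged over genotypes, 3 had a CArG box, 4 a MEF2 site, 7 an MCAT element and 6 a GATA site, and of the other 15 these numbers were 3, 2, 5 and 4. Myl3, Tnnc1 and Myoz2 are shown as 3 of the genes that fell on either scale, and Ttn as one that did not fall, each 5′ to 3′ on its own strand and ending at the base before the start, which RefSeq can place inside the span that GENCODE gives a gene. Capitals mark the CArG box (85 to 76 bases before the start) and MCAT elements (177 to 172 and 149 to 144 bases before it) in Myl3, the MCAT element of Tnnc1 (58 to 53), and the MEF2 sites of Myoz2 (33 to 24) and Ttn (166 to 157). The Myoz2 match, CTATATATAG, holds TATATA, and a pattern match alone does not show which factor binds it.
Myl3, chr9:110763428-110763677, plus strand: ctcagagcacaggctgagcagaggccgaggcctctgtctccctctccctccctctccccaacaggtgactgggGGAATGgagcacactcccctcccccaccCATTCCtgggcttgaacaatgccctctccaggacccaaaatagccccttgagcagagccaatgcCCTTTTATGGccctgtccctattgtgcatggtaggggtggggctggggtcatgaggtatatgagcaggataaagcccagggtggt
Tnnc1, chr14:31208062-31208311, plus strand: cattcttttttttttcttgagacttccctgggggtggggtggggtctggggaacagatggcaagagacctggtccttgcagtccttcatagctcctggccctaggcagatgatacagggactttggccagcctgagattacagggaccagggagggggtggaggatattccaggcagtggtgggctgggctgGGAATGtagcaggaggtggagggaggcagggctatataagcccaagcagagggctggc
Myoz2, chr3:123034988-123035237, minus strand: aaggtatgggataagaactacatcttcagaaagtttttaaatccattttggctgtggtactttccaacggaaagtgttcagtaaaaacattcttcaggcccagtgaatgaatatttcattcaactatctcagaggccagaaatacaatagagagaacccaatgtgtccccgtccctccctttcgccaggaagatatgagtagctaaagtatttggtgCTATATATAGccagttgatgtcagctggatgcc
Ttn, chr2:76982548-76982797, minus strand: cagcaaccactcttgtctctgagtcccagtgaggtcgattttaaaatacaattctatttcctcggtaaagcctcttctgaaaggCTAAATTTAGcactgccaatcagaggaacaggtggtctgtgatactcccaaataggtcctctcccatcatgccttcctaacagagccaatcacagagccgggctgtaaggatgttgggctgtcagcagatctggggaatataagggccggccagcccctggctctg

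Of the 8 motor and thick filament genes, 6 fell in WT and 5 in iKO, with medians of -0.32 and -0.37. Myl3, whose promoter above holds a CArG box and 2 MCAT elements, encodes the essential light chain that braces the myosin lever arm (chromosome 9, 110741861 to 110769798, plus strand, GRCm38). Myl3 in WT was 5119, 5205, 5276, 5056 and 5322 FPKM on chow and 4125, 3617, 3935, 4009 and 4585 on HFD. In iKO, Myl3 was 5087, 5084, 4988, 5424 and 4866 on chow and 4047, 3468, 3848, 3995 and 3919 on HFD. As deposited, every HFD library lay below every chow library, with RT19 the highest on HFD. The log2 fold change was -0.36, SE 0.051, adjusted p = 0.000153 in WT and -0.40, SE 0.051, adjusted p = 2.31e-05 in iKO. Myl2, the regulatory light chain that is phosphorylated to tune cross-bridges (chromosome 5, 122100951 to 122113472), fell too. Myl2 in WT was 11528, 11814, 12208, 11823 and 12164 FPKM on chow and 9694, 8391, 10071, 9162 and 11094 on HFD. In iKO, Myl2 was 11568, 11142, 12594, 13221 and 12267 on chow and 9345, 9095, 9191, 9170.4 and 9930.4 on HFD. The diets again did not overlap, though RT19 came close to the lowest chow library, RT4. Myl2 fell in WT (-0.30, SE 0.057, adjusted p = 0.00249) and in iKO (-0.38, SE 0.057, adjusted p = 0.000178), and after median-of-ratios scaling in iKO alone (-0.29, adjusted p = 0.0243, against -0.20 and 0.173 in WT).

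Mylk3 encodes the cardiac kinase that phosphorylates Myl2 (chromosome 8, 85324303 to 85386345, minus strand). Mylk3 in WT was 175, 209, 191, 198 and 191 FPKM on chow and 163, 155, 159.9, 150.4 and 141 on HFD. In iKO, Mylk3 was 178, 169.7, 196, 232 and 198 on chow and 152, 138, 156, 153 and 149 on HFD. Chow and HFD libraries did not overlap. Mylk3 fell in WT (-0.32, SE 0.066, adjusted p = 0.00489) and iKO (-0.37, SE 0.066, adjusted p = 0.000897), and after scaling the WT call was lost (-0.22, adjusted p = 0.112). Mybpc3, the myosin-binding protein C that restrains cross-bridges and is a frequent site of mutation in hypertrophic cardiomyopathy (chromosome 2, 91118144 to 91136516), fell in both genotypes. Mybpc3 in WT was 692, 671, 734, 751 and 650.4 FPKM on chow and 495, 528, 551, 538 and 566 on HFD. In iKO, Mybpc3 was 758, 807, 673, 781 and 612 on chow and 539.6, 537, 656, 602 and 607 on HFD. WT groups stood clear of each other, while in iKO RT15 on HFD lay above RT9 on chow. The log2 fold change was -0.38, SE 0.069, adjusted p = 0.00172 in WT and -0.30, SE 0.069, adjusted p = 0.00758 in iKO, where it did not pass after scaling (-0.21, adjusted p = 0.0714).

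Myh7b, a slow myosin heavy chain whose gene also holds a microRNA, was scarce (chromosome 2, 155611212 to 155634307). Myh7b in WT was 5.23, 4.65, 6.31, 5.58 and 4.83 FPKM on chow and 4.08, 3.81, 4.79, 3.48 and 4.21 on HFD. In iKO, Myh7b was 5.19, 6.04, 5.60, 6.70 and 5.25 on chow and 3.82, 4.10, 3.80, 3.95 and 3.60 on HFD. RT16 on HFD lay above RT3 on chow in WT, and in iKO the diets did not overlap. Myh7b fell in WT (-0.32, SE 0.078, adjusted p = 0.0157; -0.23 and adjusted p = 0.117 after scaling) and in iKO (-0.47, SE 0.078, adjusted p = 0.00049; -0.40 and 0.00288 after scaling). Myh6, the major motor (chromosome 14, 54941921 to 54966927, minus strand), passed in WT alone. Myh6 in WT was 2401, 2746, 2568, 2662 and 2634 FPKM on chow and 2214, 2124, 2481, 2396 and 2243 on HFD. In iKO, Myh6 was 2495, 2395, 2440.4, 2899 and 2435 on chow and 2362, 2161, 2446, 2254 and 2435 on HFD. Both pairs of groups overlapped, RT1 being the lowest WT library on chow and RT7 standing above the rest. Myh6 fell in WT (-0.18, SE 0.054, adjusted p = 0.0395) and had -0.12, SE 0.054, adjusted p = 0.178 in iKO. Its WT call was lost after scaling (-0.080, adjusted p = 0.612), with no floor on low genes (0.0886), and in 7 of the 20 fits that left out 1 library (adjusted p up to 0.10).

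**Figure D3:**
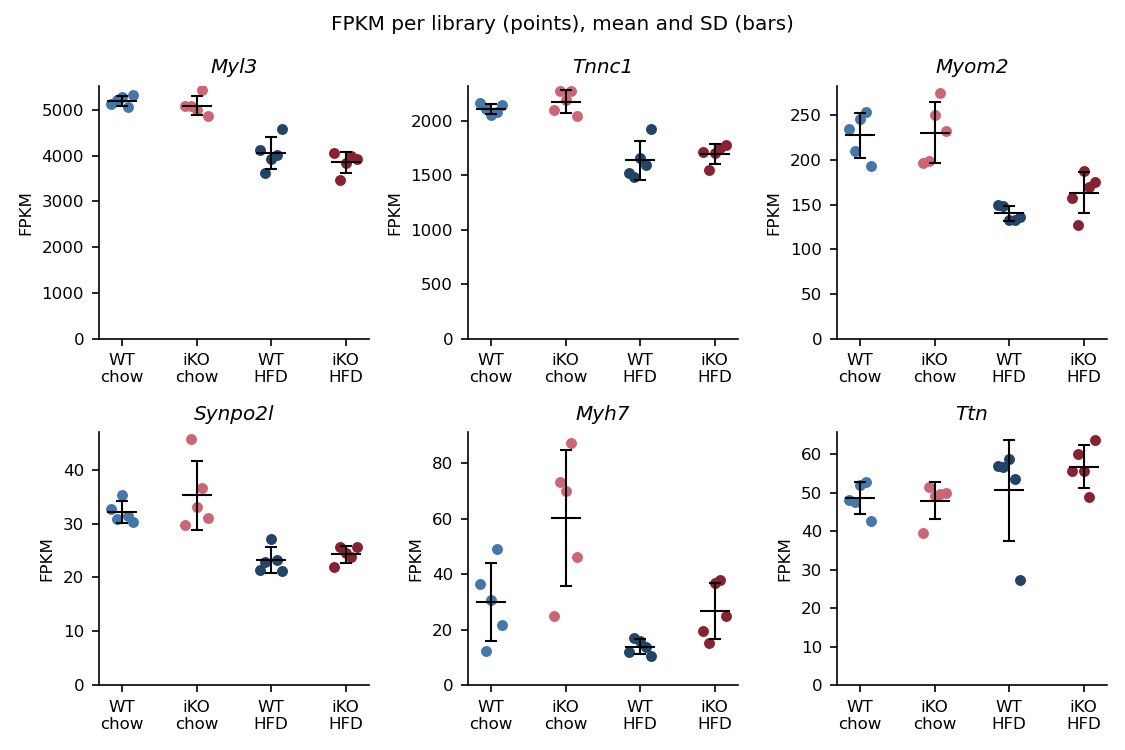
FPKM of 6 sarcomere genes in each library (points), with the group mean and SD (bars, n = 5), on axes that start at 0. Myl3, Tnnc1, Myom2 and Synpo2l, in FPKM as deposited, are lower in every HFD library than in every chow library, Myh7 spreads most in chow-fed iKO (25.1 to 87.3 FPKM), and 1 WT library on HFD, RT19, has Ttn at 27.3 FPKM.

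Of the 13 thin filament genes, 5 fell in WT and 6 in iKO, and these were troponins, leiomodins and, in iKO, Tpm1. Tnnc1, the calcium-binding troponin C (chromosome 14, 31208312 to 31211729), whose promoter above holds an MCAT element, was the clearest. Tnnc1 in WT was 2166, 2115, 2056, 2080.3 and 2151 FPKM on chow and 1519, 1483, 1663, 1597 and 1931 on HFD. In iKO, Tnnc1 was 2101, 2279, 2191, 2273 and 2043 on chow and 1712, 1547, 1703, 1750.2 and 1781 on HFD. As deposited, no HFD library reached any chow library. Tnnc1 fell in WT (-0.37, SE 0.056, adjusted p = 0.000346) and iKO (-0.36, SE 0.056, adjusted p = 0.000272), and after scaling too (-0.27 in both, adjusted p = 0.0278 and 0.0174). Tnnt2, the subunit that ties the troponin complex to tropomyosin (chromosome 1, 135836354 to 135852260), followed. Tnnt2 in WT was 3673, 3830.3, 3774, 3645 and 3783 FPKM on chow and 3231, 2843, 3168, 2952 and 3748 on HFD. In iKO, Tnnt2 was 3575, 3686, 3879.9, 4240.5 and 3848 on chow and 3207, 3096, 2951, 3011 and 3104 on HFD. RT19 alone among HFD libraries lay within the chow range. Tnnt2 fell in WT (-0.24, SE 0.056, adjusted p = 0.0127) and iKO (-0.32, SE 0.056, adjusted p = 0.000809), and neither passed after scaling (-0.13 and -0.23, adjusted p = 0.404 and 0.0644).

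Tnni3 encodes the inhibitory subunit that β-adrenergic signalling phosphorylates (chromosome 7, 4518305 to 4524229, minus strand). Tnni3 in WT was 2814, 3076, 3002, 2885 and 3076 FPKM on chow and 2644, 2259, 2674, 2539 and 2829.5 on HFD. In iKO, Tnni3 was 2907, 2771, 2903, 3231 and 2769 on chow and 2585, 2416, 2349.9, 2199 and 2604 on HFD. In WT the groups met, RT19 on HFD lying just above RT1 on chow, and in iKO they did not. Tnni3 fell in WT (-0.20, SE 0.057, adjusted p = 0.0334) and iKO (-0.26, SE 0.057, adjusted p = 0.00554). After scaling neither passed (-0.098 and -0.18, adjusted p = 0.579 and 0.185), and the WT call was lost with no floor on low genes (0.0771) and in 6 of the 20 fits without 1 library (adjusted p up to 0.0922). The leiomodins, which nucleate actin and set filament length, fell in both genotypes. Lmod2 went from 278 ± 32.7 to 224 ± 21.4 FPKM in WT and from 270.4 ± 14.7 to 231 ± 9.63 in iKO (SD, n = 5; adjusted p = 0.00895 and 0.038). Lmod3 went from 41.6 ± 2.34 to 31.6 ± 3.99 and from 41.4 ± 4.13 to 32.4 ± 4.27 FPKM (adjusted p = 0.0109 and 0.0169). Neither leiomodin passed in a single genotype after scaling, and both passed in the average. Tpm1, the main cardiac tropomyosin, passed in iKO (-0.17, SE 0.048, adjusted p = 0.0259) and had -0.10 in WT (adjusted p = 0.184), and after scaling it did not pass (-0.084 and 0.0027, adjusted p = 0.516 and 0.991).

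Neither actin was called. Actc1, the main sarcomeric actin of the heart (chromosome 2, 114047282 to 114053548, minus strand), is the more abundant. Actc1 in WT was 4866, 4548, 4375, 4402 and 4635 FPKM on chow and 4228, 4033, 4486, 3748 and 5362 on HFD. In iKO, Actc1 was 4633, 5335, 5237, 5399 and 4284 on chow and 4706, 4831, 4747, 4289.9 and 4829.9 on HFD. The groups overlapped, and RT19 had the highest value in WT. Its log2 fold change was -0.072 in WT and -0.084 in iKO (adjusted p = 0.567 and 0.527), and 0.032 and 0.0021 after scaling, so that the sign rests on the scale. Acta1, the skeletal actin that the fetal ventricle shares (chromosome 8, 123891769 to 123894751, minus strand), had the widest spread relative to its mean, in chow-fed iKO. Acta1 in WT was 198, 109, 134, 130.1 and 88.6 FPKM on chow and 59.8, 60.9, 85.7, 80.9 and 168 on HFD. In iKO, Acta1 was 197, 427, 81.5, 73.6 and 62.1 on chow and 47.3, 149, 115, 117 and 146 on HFD. RT4 was far above the other chow libraries and RT19 far above the rest of HFD-fed WT. Neither diet difference passed (-0.59, SE 0.48, adjusted p = 0.456 in WT and -0.23, SE 0.48, adjusted p = 0.807 in iKO), and without RT4 the iKO difference was 0.20.

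The remaining thin filament genes did not pass in either genotype: the tropomyosins Tpm2, Tpm3 and Tpm4, tropomodulin (Tmod1), which caps the pointed end, and the nebulin-like Nebl. Their log2 fold changes lay between -0.18 (Tpm4 in iKO) and 0.024 (Nebl in WT). Tpm4, a cytoskeletal tropomyosin, was highest in RT4 at 65.8 FPKM against 51.1 to 53.6 in the other iKO libraries on chow. The 4 tropomyosin genes are similar enough that reads may be shared between them.

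At the M-band, Myom2 was the 1 gene of 4 called in both genotypes. Myom2 (M-protein, a myomesin of fast and cardiac fibres; chromosome 8, 15057653 to 15133541) had the lowest called log2 fold change of the 42, in WT. Myom2 in WT was 235, 210.5, 246, 254 and 194 FPKM on chow and 149.7, 148, 133, 133 and 136 on HFD. In iKO, Myom2 was 197, 199, 249.9, 275 and 233 on chow and 158, 128, 188, 169 and 176 on HFD. All 10 HFD libraries were below all 10 chow libraries, with RT13 the lowest. Myom2 fell in WT (-0.69, SE 0.10, adjusted p = 0.000375) and in iKO (-0.49, SE 0.10, adjusted p = 0.00407), and after scaling (-0.59 and -0.41, adjusted p = 0.00354 and 0.0334). Myom1, the principal myomesin, had -0.12 in WT and -0.072 in iKO and passed in the average alone (-0.10, SE 0.029, adjusted p = 0.0177). Myom3 was near 1 FPKM and also passed in the average alone (-0.20, SE 0.058, adjusted p = 0.014). Obsl1, which links titin to myomesin, did not pass (-0.047 and -0.070).

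Of the 17 genes of the Z-disc, desmin and the junctions, 6 fell in WT and 5 in iKO. Synpo2l, an actin-associated Z-disc protein also called CHAP (chromosome 14, 20658946 to 20668354, minus strand), had the lowest log2 fold change of this role among called genes. Synpo2l in WT was 32.7, 30.8, 35.4, 31.4 and 30.4 FPKM on chow and 21.4, 22.9, 27.2, 23.3 and 21.2 on HFD. In iKO, Synpo2l was 29.8, 45.7, 33.1, 36.6 and 31.1 on chow and 21.9, 25.7, 24.6, 23.8 and 25.7 on HFD. The diets did not overlap in either genotype, and RT4 had the highest value. Synpo2l fell in WT (-0.46, SE 0.088, adjusted p = 0.00343) and iKO (-0.50, SE 0.088, adjusted p = 0.000801), and after scaling (-0.36 and -0.42, adjusted p = 0.0113 and 0.00163). Myoz2, or calsarcin-1, tethers calcineurin to α-actinin (chromosome 3, 123006206 to 123035015, minus strand). Its promoter above holds a match to the MEF2 pattern. Myoz2 varied little within groups. Myoz2 in WT was 609.5, 641, 635, 587 and 574 FPKM on chow and 458, 473, 484, 499 and 514 on HFD. In iKO, Myoz2 was 559, 560.1, 585, 578 and 572 on chow and 444, 422, 491, 474 and 479 on HFD. As deposited, every HFD library lay below every chow library. Myoz2 fell in WT (-0.33, SE 0.044, adjusted p = 9.98e-05) and iKO (-0.31, SE 0.044, adjusted p = 0.000114), and after scaling (-0.22 in both, adjusted p = 0.0328 and 0.0237).

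Csrp3, the muscle LIM protein that takes part in mechanical sensing at the Z-disc (chromosome 7, 48830398 to 48848033, minus strand), also fell. Csrp3 in WT was 1075, 1098, 1173, 1065 and 1036 FPKM on chow and 897, 875, 963, 896 and 1059.8 on HFD. In iKO, Csrp3 was 1070.0, 1111, 1103, 1174 and 1123 on chow and 928, 853, 858, 854 and 971 on HFD. RT19 was the 1 HFD library inside the chow range. Csrp3 fell in WT (-0.22, SE 0.051, adjusted p = 0.012; -0.11 and adjusted p = 0.453 after scaling) and iKO (-0.32, SE 0.051, adjusted p = 0.000303; -0.24 and 0.0431 after scaling). Tcap, telethonin, which caps titin at the Z-disc, fell in iKO from 1461 ± 184 to 1084 ± 156 FPKM (SD, n = 5; -0.43, SE 0.10, adjusted p = 0.0071) and stood at 1499 ± 134 and 1287 ± 113 in WT (adjusted p = 0.154), with no call after scaling (iKO -0.35, adjusted p = 0.0684). Pdlim1, a PDZ and LIM protein that binds α-actinin, fell in iKO (-0.39, SE 0.089, adjusted p = 0.00723; -0.31 and adjusted p = 0.0448 after scaling) and had -0.23 in WT (adjusted p = 0.106).

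Actn2 (α-actinin, which cross-links actin in the Z-disc), Ldb3 (cypher) and Xirp1 (of the intercalated disc) passed in WT alone. Actn2 went from 443 ± 13.6 to 393 ± 23.9 FPKM in WT (-0.18, SE 0.045, adjusted p = 0.0191), and none of these 3 calls was kept after scaling. Desmin (Des), the muscle intermediate filament, was near the threshold in both genotypes (adjusted p = 0.0592 and 0.0602) and passed in the average (-0.20, SE 0.048, adjusted p = 0.00371), as did myotilin (Myot; -0.44, SE 0.14, adjusted p = 0.0333). Pdlim3, Pdlim5, Flnc (filamin C), Xirp2, Nexn (nexilin), Smpx and Cmya5 did not pass in any diet comparison. Of these, Nexn and Pdlim5 stayed within -0.012 and 0.051 on the log2 scale in both genotypes as deposited. After scaling Nexn had 0.15 in WT and 0.074 in iKO, and Pdlim5 had 0.12 and 0.11, with no call.

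Titin (Ttn; chromosome 2, 76703980 to 76982547, minus strand) was the 1 motor and thick filament gene that did not fall in the average. Ttn in WT was 48.1, 47.6, 52.0, 52.9 and 42.5 FPKM on chow and 57.0, 56.6, 58.8, 53.5 and 27.3 on HFD. In iKO, Ttn was 39.6, 51.3, 49.2, 49.7 and 50.0 on chow and 55.6, 60.1, 55.6, 48.9 and 63.6 on HFD. In WT 4 of the 5 HFD libraries were above every chow library and RT19 was below all, and in iKO 4 of 5 were above every chow library. As deposited the log2 fold change was 0.011 in WT and 0.24 in iKO (SE 0.15 in each; adjusted p = 0.974 and 0.359). With RT19 left out and median-of-ratios scaling, a setting chosen after these values were seen, Ttn rose by 0.30 in WT (adjusted p = 0.0496) and 0.32 in iKO (0.0165). Without RT19 and with no scaling the iKO difference of 0.24 had an adjusted p of 0.0391, since the estimate of the spread no longer held RT19.

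RT19 differed from its group by transcript length. Across the 42 genes, its deviation from the mean of HFD-fed WT had a Spearman correlation of -0.64 with the length of the longest coding transcript, and across 11929 genes -0.58. In the other 19 libraries the correlation over the 42 genes was between -0.39 and 0.49. These points share 1 library and are not independent. Ttn, with the longest transcript at 106824 nt, was lowest in RT19 (-0.82 on the log2 scale), then Cmya5 (11850 nt, -0.44) and Nebl (8079 nt, -0.41). Tnnc1, the shortest at 721 nt, stood at 0.24 there. Among HFD-fed WT libraries the light chains Myl2 and Myl3 and the troponins Tnnc1, Tnni3 and Tnnt2 were highest in RT19. Without RT19 the log2 diet difference in WT was -0.41 for Myl3 and -0.43 for Tnnc1. Across members, the log2 diet effect and transcript length had a Spearman correlation of 0.19 in WT and 0.40 in iKO, and across all genes 0.05 and 0.27. The part of length in the results was not tested.

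**Figure D4:**
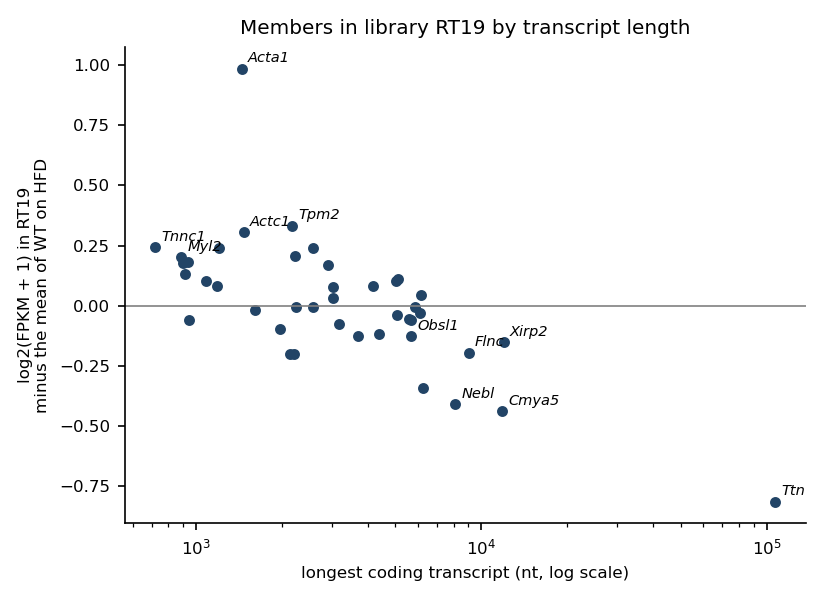
Sarcomere and Z-disc genes in library RT19. The vertical axis is log2(FPKM + 1) in RT19 minus the mean of HFD-fed WT, and the horizontal axis is the length of the longest coding transcript in nt on a log scale. Ttn is lowest at -0.82 and Acta1 highest at 0.99, and the 5 longest genes all lie below 0.

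The pairs of myosin and actin genes were also compared as shares, which no scaling between libraries can move. Myh7, the slow β-chain next to Myh6 on chromosome 14 (54970684 to 54994626, minus strand), was low and variable. Myh7 in WT was 36.6, 12.5, 30.7, 49.0 and 21.5 FPKM on chow and 11.96, 16.99, 16.1, 13.6 and 10.6 on HFD. In iKO, Myh7 was 25.1, 73.3, 69.9, 87.3 and 46.1 on chow and 19.6, 15.2, 36.8, 37.8 and 24.8 on HFD. On chow 3 of the 5 iKO libraries were above all of WT, and on HFD 4 of 5 were. Within each genotype 1 chow library, RT3 in WT and RT2 in iKO, lay inside the HFD range. Averaged over genotypes Myh7 fell on HFD (-1.02, SE 0.26, adjusted p = 0.00899; -0.93 and 0.0248 after scaling). In single genotypes it did not pass (-0.95, SE 0.37, adjusted p = 0.117 in WT and -1.10, SE 0.37, adjusted p = 0.0695 in iKO), though in 2 of 20 fits without 1 library the iKO difference passed, without RT2 (adjusted p = 0.0221) or without RT3 (0.0458), a WT library that enters only the estimate of the spread.

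Myh7 made up 1.15% ± 0.538 of the summed FPKM of Myh6 and Myh7 in chow-fed WT, 2.31% ± 0.862 in chow-fed iKO, 0.602% ± 0.124 in HFD-fed WT and 1.13% ± 0.415 in HFD-fed iKO (SD, n = 5). In exact two-sided permutation tests (252 splits, smallest possible p = 0.00794) the iKO share minus the WT share was 1.16 percentage points on chow (p = 0.0476) and 0.531 on HFD (p = 0.0159). By the same exact test the HFD share differed by -1.17 points in iKO (p = 0.0397) and -0.549 in WT (p = 0.0714). With Benjamini-Hochberg adjustment over the 8 comparisons of both pairs none passed (adjusted exact p = 0.127, 0.127, 0.127 and 0.143). With each library left out in turn, adjusted exact permutation p was 0.127 to 0.178 in 9 of 10 fits, both for genotype on chow and for diet in iKO. It was 0.0317 in the 1 without RT2 (1.48 and -1.50 points), the chow-fed iKO library of lowest share (0.994%), whose removal could only widen these differences.

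**Figure D5:**
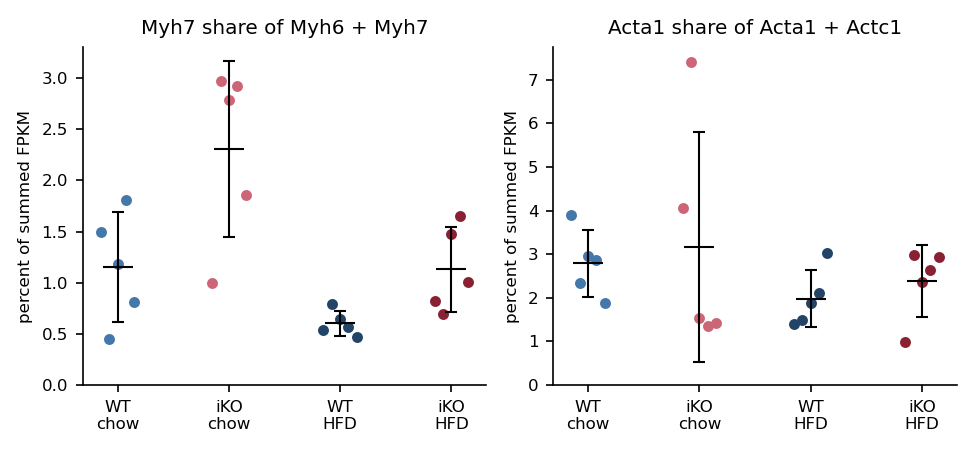
Share of Myh7 in Myh6 plus Myh7 and of Acta1 in Acta1 plus Actc1, in percent of summed FPKM, for each library (points) with the group mean and SD (bars, n = 5). Of the 5 iKO libraries on HFD, 4 lie above the highest HFD-fed WT library (0.794%), and 1 iKO library on chow has an Acta1 share of 7.41%.

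Acta1 was 2.79% ± 0.765 of the 2 actins in chow-fed WT and 3.16% ± 2.64 in chow-fed iKO, 1.98% ± 0.658 in HFD-fed WT and 2.39% ± 0.819 in HFD-fed iKO (SD, n = 5). No difference passed the exact permutation test (p between 0.111 and 0.849). RT4, next to RT1 in its atrial marker sum (389 FPKM), held 7.41%, and without it the difference of iKO from chow-fed WT was -0.698 points in place of 0.364. Both pairs are close paralogues that can share reads, which bears most on the scarce member of each.

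The comparisons of genotypes asked what loss of ACC2 did to these genes on each diet. By limma at an adjusted p under 0.05, none of the 42 was called on chow, against 1.06% of all genes, or on HFD, against 0.172%. The median log2 fold change was 0.040 on chow and 0.033 on HFD, against 0.050 and 0.063 over all genes. Over all genes the calls split 44 higher and 92 lower on chow and 13 and 9 on HFD, and 19 and 124, then 8 and 17, after median-of-ratios scaling. Averaged over diets none was called either (11 at an unadjusted p under 0.05; 5.17% of all genes called, 512 higher and 148 lower, or 105 and 273 after scaling).

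By adjusted p the nearest member was Pdlim3 on chow, Flnc on HFD and Myh7 in the average. For Myh7 the log2 difference, iKO against WT, was 0.997 on chow (SE 0.37, adjusted p = 0.251) and 0.85 on HFD (adjusted p = 0.299), and 0.92 in the average (adjusted p = 0.0503). The average did not pass after scaling (0.86, adjusted p = 0.0775) or in 16 of the 20 fits without 1 library, and in 4 it passed: without RT1 (0.97, adjusted p = 0.0479), without RT2 (1.06, 0.0232), without RT8 (1.02, 0.0410) or without RT11 (0.97, 0.0428). Pdlim3 was at 5.38 ± 1.15 FPKM in chow-fed WT and 7.98 ± 2.03 in chow-fed iKO (SD, n = 5; 0.48, SE 0.15, adjusted p = 0.161), and in the average (0.33, adjusted p = 0.0758; 0.158 after scaling) it passed in 3 of the 20 fits, without RT1, RT6 or RT17 (0.38, adjusted p = 0.0430, 0.0300 and 0.0496). Flnc, at 30.1 ± 2.72 FPKM in HFD-fed WT and 40.3 ± 7.69 in HFD-fed iKO (0.39, SE 0.11, adjusted p = 0.157), had 0.24 in the average (adjusted p = 0.0765) and passed in 2 of the 20 fits, without RT6 or RT11 (0.27, adjusted p = 0.0465 and 0.0385). In the other direction, Myoz2 passed in the average after median-of-ratios scaling (-0.15, adjusted p = 0.0413; 2.96% of all genes called) and Obsl1 without RT7 (-0.17, adjusted p = 0.0455; 0.0548 with scaling and all libraries). Fibroblast markers, high in 5 iKO libraries, had a median log2 genotype difference of 0.39 on chow and 0.34 on HFD (10 genes, 0 called), and 0.32 in the average, where 1 was called higher. After median-of-ratios scaling their median in the average was 0.26, with 0 called. Macrophage markers had 0.23 and 0.19, with 7 of 7 above 0 on each diet, and 0.17 in the average (0 called). Erythroid markers had 0.37 on chow, with 0 of 5 below 0, and -0.073 on HFD, with 5 of 5 below 0 (0 called on either diet). The 10 cardiomyocyte marker genes outside the list had -0.024 and -0.041, with 7 of 10 below 0 on each diet (0 called). In the average they had -0.0295 with 1 called lower, and -0.095 with 2 called lower after median-of-ratios scaling. The part of any of these cell types in these differences was not tested.

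The other members given by library were not called either. Between genotypes Myh6 had a log2 fold change of -0.041 on chow and 0.026 on HFD, Actc1 0.12 and 0.11, Acta1 -0.015 and 0.34, and Ttn -0.022 and 0.21. The sign turned in some settings for Myh6 and Ttn on HFD and for Acta1 and Ttn on chow. The SE was 0.054 for Myh6, 0.076 for Actc1, 0.48 for Acta1 and 0.15 for Ttn. For the 12 other genes given by library, the 24 genotype differences lay between -0.16 and 0.30 in any setting tried, with 0 calls among 648 values, and 11 of the 24 changed sign.

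Genes around the sarcomere were read from 5 further lists. Over all tested genes 7.27% fell on HFD in WT, 8.36% in iKO and 23.3% in the average, while 0.767%, 1.65% and 2.55% rose. After median-of-ratios scaling 1.25%, 1.91% and 5.07% fell and 1.4%, 2.55% and 5.31% rose. Between genotypes 1.06% were called on chow and 5.17% averaged over diets. Of 17 tested other Z-disc, titin-cap and thin filament genes, 1 fell on HFD in WT and 2 in iKO, while after scaling none fell and 1 rose in each genotype. Ankrd1, a stretch-responsive repressor held by titin, fell in WT from 634 ± 111 to 322 ± 62.6 FPKM (SD, n = 5; -0.98, adjusted p = 0.0468) and was 747 ± 274 and 457 ± 170 in iKO. Its WT call was lost after scaling (adjusted p = 0.112), and the average passed on both scales (-0.86, adjusted p = 0.00583, and -0.77, 0.0171). In iKO Fhl3 (-0.43, adjusted p = 0.0426) and Nrap (-0.22, 0.0433) fell, neither after scaling. Averaged over genotypes 5 of these 17 fell and 1 rose, and after scaling 2 fell and 4 rose. Palld, an actin-bundling protein, rose in the average (0.15, adjusted p = 0.0275, and 0.25, 0.00262 after scaling). Of 13 tested costamere and intermediate filament genes 0 were called in either genotype as deposited, and after scaling 1 rose in WT and 1 in iKO. Sgca fell in the average (-0.16, adjusted p = 0.0287), though not after scaling (0.482), when 3 of the 13 rose.

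Of 18 assembly factors, chaperones and ubiquitin ligases, 3 fell on HFD in WT, 4 fell in iKO and 1 rose in iKO. Klhl40, which stabilises Lmod3 in skeletal muscle, fell in WT (-0.28, adjusted p = 0.0370) and iKO (-0.41, 0.00222), and after scaling in iKO (-0.34, 0.0140). Bag3, a co-chaperone of Z-disc turnover, fell in WT (-0.25, adjusted p = 0.0123), as did the ligase Trim54 (-0.21, 0.0251), neither after scaling. Fbxo32, the ubiquitin ligase atrogin-1, rose in iKO from 25.7 ± 2.19 to 31.7 ± 2.64 FPKM (SD, n = 5; 0.29, adjusted p = 0.0196, and 0.38, 0.00791 after scaling). In iKO Smyd2 (-0.24, adjusted p = 0.0152) and Hspb7 (-0.21, 0.0408) fell, neither after scaling. Klhl41, a relative of Klhl40, was the 1 gene of the 5 lists called between genotypes on chow, 24.1 ± 1.13 FPKM in WT and 28.9 ± 1.17 in iKO (0.25, adjusted p = 0.0418), and this was lost after scaling (0.127). Averaged over diets Klhl41 had 0.19 (adjusted p = 0.0147, and 0.0928 after scaling). Averaged over genotypes 7 of the 18 fell and 1 rose, and after scaling 1 fell (Klhl40) and 1 rose (Fbxo32).

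Of 9 tested fetal and skeletal isoforms, a list that shares Myl4 and Myl7 with the atrial markers and holds all skeletal muscle markers but Actn3, Tnnt1, slow skeletal troponin T, fell in both genotypes, from 7.16 ± 0.936 to 4.57 ± 1.01 FPKM in WT (SD, n = 5; -0.56, adjusted p = 0.0123) and from 9.21 ± 2.15 to 5.10 ± 0.587 in iKO (-0.72, 0.00139). After scaling it passed in iKO (-0.65, adjusted p = 0.00809) and not in WT (0.0705). Mybpc2, a fast skeletal myosin-binding protein, fell in the average (-0.51, adjusted p = 0.0429, and 0.110 after scaling). Of 14 tested transcription factors of muscle genes, Myocd, myocardin, the partner of serum response factor at CArG boxes, fell in WT (-0.39, adjusted p = 0.0101, and -0.29, 0.0490 after scaling) and iKO (-0.31, 0.0264, and -0.24, 0.103 after scaling). Tbx20 was higher in iKO averaged over diets (0.29, adjusted p = 0.00669, and 0.22, 0.0242 after scaling) and fell on HFD averaged over genotypes (-0.16, 0.0429, and 0.475 after scaling). Atrial muscle markers summed to 72.3 to 722 FPKM in chow-fed WT, 114 to 389 in chow-fed iKO, 34.7 to 84.7 in HFD-fed WT and 56.0 to 130 in HFD-fed iKO. All 5 tested atrial markers lay below 0 on HFD in both genotypes (median -0.41 in WT, 1 called, and -0.76 in iKO, 0 called). Without RT1 and RT4, 16 of the 42 genes fell in WT and 16 in iKO, among 691 and 665 genes in all, against 929 and 1068 with them. The part of atrial tissue in the diet differences was not tested.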

How the data were processed

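RNA was extracted from frozen left ventricle of 20 mice, 5 in each of 4 groups, and sequenced as poly(A)-selected libraries of 100 nt single-end reads, per the labels' protocols. The submitters' processing notes name Bowtie2, RSEM, DESeq2 and the mm9 build. The authors deposited 1 FPKM per gene and library, to 2 decimals; how reads that fit close paralogues were divided is not stated in the labels. Gene IDs were matched to GENCODE M21 (GRCm38; 24938 genes), from which gene positions and transcript lengths were taken, so printed positions are GRCm38 and not mm9.

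FPKM was tested as log2(FPKM + 1) in 1 limma (3.58.1) fit of 20 libraries with trend and robust variance, 4 group means and 7 comparisons, with Benjamini-Hochberg adjustment over all 12775 genes; fold changes on this scale understate those of low genes. The script was tested on simulated data. Pair shares were compared by exact 2-sided permutation. Alternatives were a pseudocount of 0.1, no floor, median-of-ratios or upper-quartile scaling, quality weights and left-out libraries. Myh6, Myh7, Actc1, Acta1 and Ttn were given by library in any case, with up to 12 other members of smallest adjusted p among those called in a single genotype, on a single diet or in the interaction. From each other pathway list up to 4 called genes of smallest p were named in a comparison. The members and all lists were chosen with earlier results of these data known. Nothing in the labels pairs the libraries. Libraries are separate mice.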

Additional observations from a re-analysis of the deposited data

Results flagged for a closer look

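In 11 of 176 groups of 5 values, 1 library lay far from the other 4 (Dixon's test), and chance gives about 1 group in 20. Of these, 4 were in RT19, from an HFD-fed WT mouse: Ttn at 27.33 FPKM (others 53.5 to 58.8), Cmya5 at 61.38 (86.6 to 95.7), Obsl1 at 13.15 (14.6 to 15.1) and Acta1 at 167.9 (59.8 to 85.7). The first 3 are long transcripts and Acta1 is short. Tpm3 was 19.2 FPKM in RT14 of the same group (17.2 to 17.6). In chow-fed iKO, RT7 held Myh6 at 2898.95 FPKM (2395 to 2495) and Tpm1 at 6304.95 (5703 to 5864), RT2 held Ttn at 39.56 (49.2 to 51.3), and RT4 held Tpm4 at 65.82 (51.1 to 53.6). In HFD-fed iKO, Actc1 was 4289.94 FPKM in RT17 (4706 to 4831). In chow-fed WT, Myom3 was 0.87 FPKM in RT10 (1.10 to 1.17). What lay behind these values was not tested.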

How the results depend on the processing

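No paired analysis was run, because the labels do not pair libraries across groups. Counts of the 42 genes called on HFD moved most with scaling. In WT, 18 were called as deposited, 6 with median-of-ratios scaling, 6 with upper-quartile scaling, 10 (1 higher) with median-of-ratios scaling without RT19, 22 with quality weights, 14 with no floor, and 13 to 20 with 1 library left out. Over all genes, 929 were lower in WT as deposited, 159 with median-of-ratios scaling, 205 with upper-quartile scaling and 199 with median-of-ratios scaling without RT19. This number was 1857 with quality weights, 544 of 25052 with no floor, and 545 to 1073 with 1 library left out. In iKO the counts of the 42 were 17, 10 with median-of-ratios scaling, 13 with upper-quartile scaling, 14 (1 higher) with median-of-ratios scaling without RT19, 16 with quality weights, 15 with no floor and 14 to 19 with 1 library left out. Over all genes, 1068 were lower in iKO as deposited, 244 with median-of-ratios scaling, 305 with upper-quartile scaling and 306 with median-of-ratios scaling without RT19. This number was 726 with quality weights, 672 of 25052 with no floor, and 710 to 1253 with 1 library left out. Averaged over genotypes the counts of the 42 were 26, 15 with median-of-ratios scaling, 17 with upper-quartile scaling and 25 to 27 with 1 library left out. Over all genes the number lower was 2973, 647 with median-of-ratios scaling, 806 with upper-quartile scaling and 2429 to 3193 with 1 library left out. For genotype averaged over diets the counts of the 42 were 0, 1 with median-of-ratios scaling and 0 to 2 with 1 library left out. Over all genes the number called was 660, 378 with median-of-ratios scaling and 336 to 1044 with 1 library left out. The setting without RT19 was chosen after the data were seen. For 58 results of the genes given by library, 1493 alternative values kept the direction and the side of the threshold, 43 lost the call, 5 gained it and 25 changed sign, all of them in results not called. Myh6 between genotypes on HFD was -0.0490 (median-of-ratios), -0.0338 (upper-quartile), -0.0392 (median-of-ratios without RT19) and -0.0011 to 0.055 with 1 library left out. Actc1 on HFD was 0.0316 and 0.0134 in WT with the 2 scalings, and 0.0021 in iKO, or 0.0023 without RT19. Ttn between genotypes on HFD was -0.0544 without RT19 and scaled, and with 1 library left out it was -0.0686 to 0.0441 between genotypes on chow and -0.0548 to 0.2144 on HFD in WT. Acta1 on HFD in iKO was 0.2042 without RT1 and RT4 and -0.4861 to 0.2042 with 1 left out, and between genotypes on chow -0.4538 to 0.2365. With 1 library left out, the Myh7 share differed by 0.982 to 1.48 points between genotypes on chow and -1.5 to -1.01 with diet in iKO, and the Acta1 share by -0.698 to 0.817 and -1.22 to 0.294. As a mean log2 ratio the Acta1 share difference on chow was -0.138. The cause of these changes was not tested. Depth is known only as an estimate, so no counting error is given for FPKM, and 5 mice per group limit the precision of Myh7 and Acta1 most.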
